A study of Homo sapiens with 2 samples.

Results

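Cyclins, cyclin-dependent kinases (CDKs), CDK inhibitors and E2F factors are the core regulators of the cell cycle, and their transcripts were examined in COLO320 cells after knockdown of CDX2. The list named 60 genes by symbol. The array carried features for 58 of them, and 55 had a ratio other than exactly 0 on both arrays, out of 12842 genes measured in this way. CCNA1, CDK18 and CDKN2B were on the array but read exactly 0 on both arrays, and CCNK and CDKN2C had no feature under those symbols, so these 5 genes have no value here. The 55 measured genes rested on 168 features, each an array spot whose value is 1 ratio.

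COLO320 is a human colorectal cancer cell line, and CDX2 is a homeobox factor that marks intestinal epithelium. One array compared cells given siRNA 6 against CDX2 with cells given a non-targeting control siRNA, and the other compared siRNA 8 with the same kind of control, each siRNA at 100 nM. RNA was collected 24 h after the medium was replaced on the morning following transfection. CDX2 siRNA RNA carried Cy5 and control RNA Cy3 on both arrays, so every ratio reads knockdown over control, and each siRNA counts as 1 replicate (n = 2 throughout). No array had the dyes exchanged, and the labels do not say whether 1 control RNA served both arrays. The table holds ratios and no intensities, so transcript levels, signal over background and the markers of the cell line could not be read from it.

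As background, cyclins switch on CDKs in turn. D-type cyclins with CDK4 or CDK6 act in G1, E-type cyclins with CDK2 at the entry to S phase, and A- and B-type cyclins with CDK1 and CDK2 later. These kinases phosphorylate the pocket proteins RB1, RBL1 and RBL2, which otherwise hold E2F factors in check, and CDK inhibitors block the kinases themselves. In the intestine CDX2 is known for its part in the differentiation and growth control of the epithelium.

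The targeted gene was lower on both arrays. The log2 ratio of CDX2 was -1.44 with siRNA 6 and -1.41 with siRNA 8, which left 37.3% of the control level (limma, adjusted p = 0.00164). Exact zeros made up 37.1% of all features on the array of siRNA 6 and 38.7% on that of siRNA 8, and were read as not measured.

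A smaller share of these regulators passed than of all genes, in both directions, and each role held at least 1 gene that passed. Of the 55 genes, 15 passed a limma adjusted p of 0.05, 5 of them higher and 10 lower with CDX2 siRNA, and 40 did not pass. CDKN1C, E2F8, TFDP2, CDKN1B and CDK6 rose. CDK17, RBL1, CCNE2, CDK14, CDK19, CCNF, CCNT2, E2F7, CCNB2 and CDC25C fell. The share that passed was 27.3%, against 40.7% of all 12842 genes, a difference that was not tested. By direction, 9.09% were higher against 12.1% of all genes, and 18.2% were lower against 28.6%, so no share exceeded that of the genes at large. The plot of both arrays by role shows that most regulators lie near the median of all genes and that a few single genes lie far from it.

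**Figure D1:**
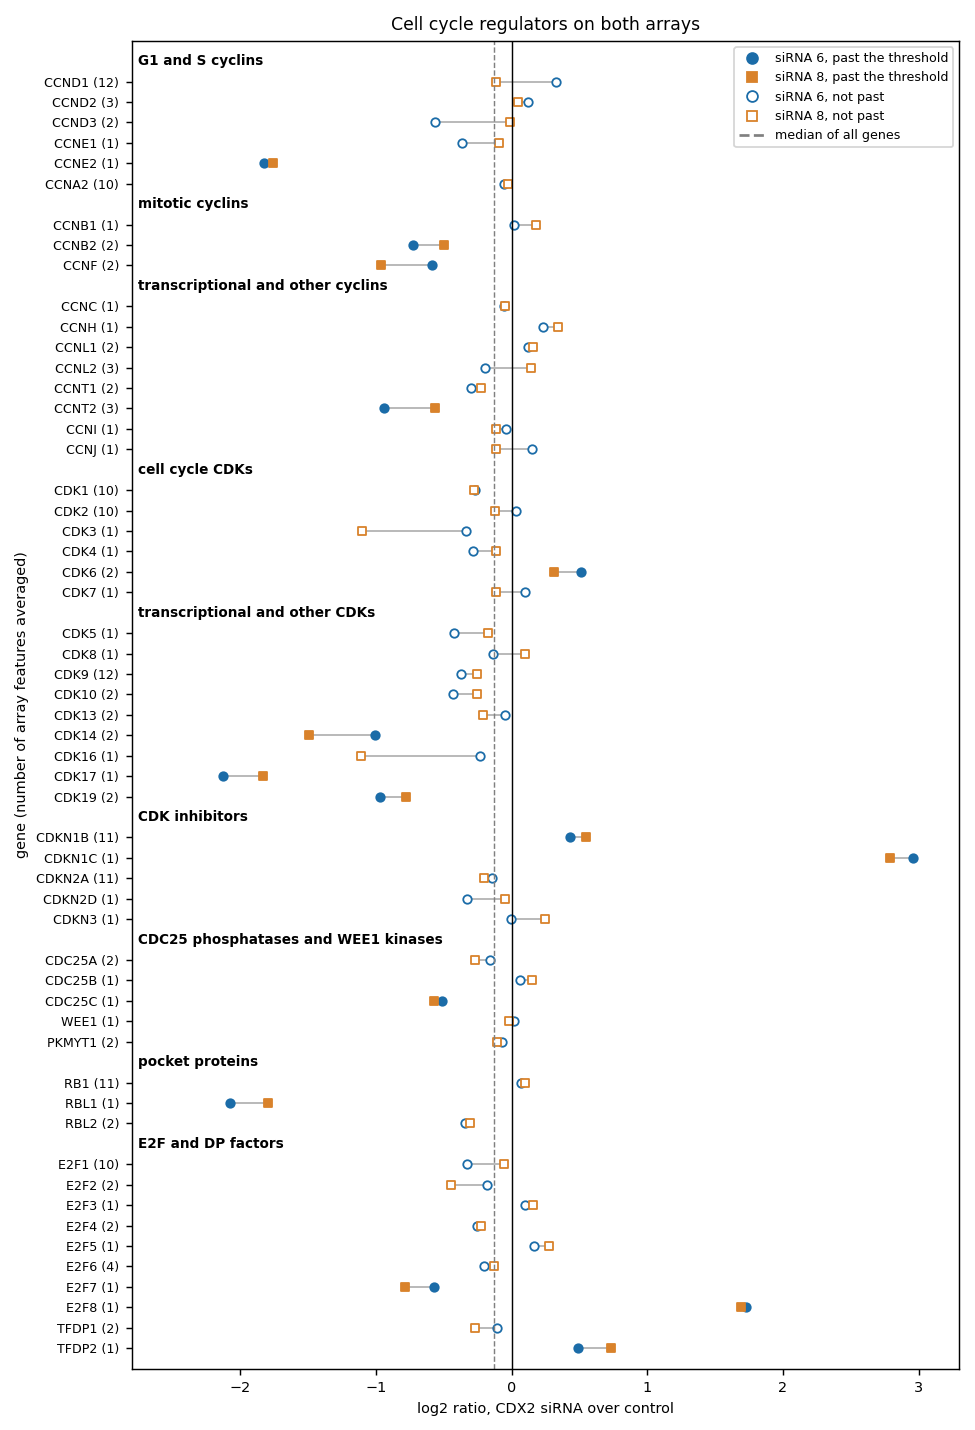
Log2 ratios of CDX2 siRNA over control for 55 cell cycle regulators (rows, grouped by role, with the number of features averaged in brackets), with circles for siRNA 6, squares for siRNA 8 and a grey line joining them. Filled symbols passed a limma adjusted p of 0.05, and the dashed line is the median of all genes at -0.13; CDKN1C stands highest at 2.96 and 2.79, and CDK17 lowest at -2.12 and -1.83.

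The median log2 ratio of the 55 genes was -0.17, near the -0.13 of all genes. Centring each array on its median moved these to -0.06 and -0.02. With centring 6 of the 55 genes were higher and 10 lower, CCNH being the addition. Of all 12842 genes, 1963 were then higher and 2933 lower, so that 59.9% of those that passed were lower in place of 70.2%. At least 1.5-fold in one direction on both arrays were 8 of the 55 genes, 2 higher and 6 lower, where 26.2% of all genes met that rule, 7.8% higher and 18.4% lower. In the distribution plot 34.5% of these regulators fall between -0.25 and 0, against 25.9% of all genes. The p-values rest on the difference between the 2 arrays and, with more weight, on a variance pooled over all genes (1 residual and 2.87 prior degrees of freedom). They leave out the spread of the control and any dye effect. When exact zeros were kept as ratios of 0, limma called none of the 18334 genes then fitted, and so none of the 58 regulators among them. At an unadjusted p under 0.05 in limma were 5218 of all these genes and 16 of the regulators. In RNA of whole cultures, a smaller share of cells in a cell cycle phase and less RNA per cell cannot be told apart.

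**Figure D2:**
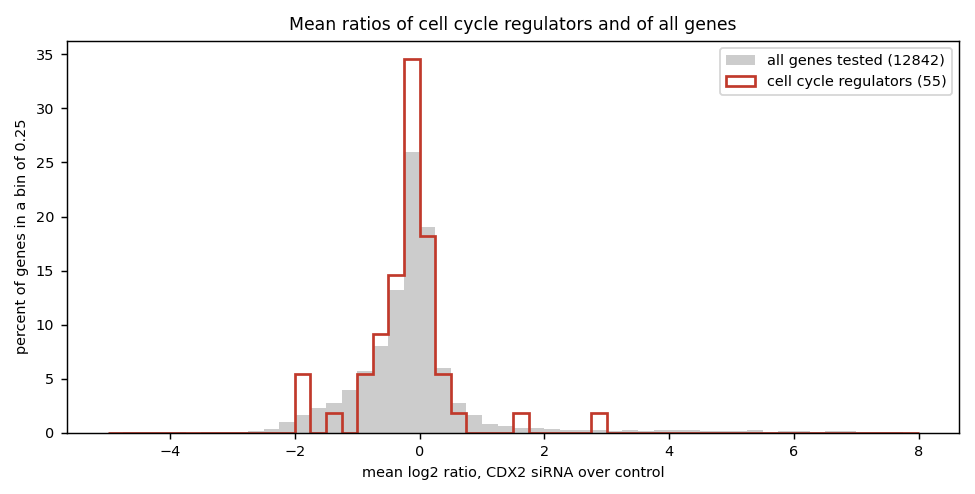
Mean log2 ratio of CDX2 siRNA over control (horizontal axis, bins of 0.25) against the percent of genes in a bin, for all 12842 genes (grey) and for 55 cell cycle regulators (red line). The regulators peak in the same bin as all genes, just below 0, and the far upper tail of all genes holds E2F8 (1.71) and CDKN1C (2.87) among the regulators.

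Among the G1 and S phase cyclins 1 of 6 passed, against 40.7% of all genes. CCNE2, cyclin E2, which activates CDK2 at the start of S phase, stood at -1.83 with siRNA 6 and -1.75 with siRNA 8, both far below 0. It was at 28.9% of control (log2 -1.79 ± 0.0510, SD, n = 2; limma, adjusted p = 0.00121), from a single feature. CCNE1, cyclin E1 with the same partner, stood at -0.36 and -0.09, and its mean of -0.23 had a 95% interval of -0.54 to 0.08. Whether the E-type cyclins differ from each other was not tested. CCNA2, cyclin A2 of S phase and mitosis, stood at -0.05 and -0.03 as a mean over 10 features, with an interval of -0.28 to 0.20.

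The D-type cyclins, which carry growth signals to CDK4 and CDK6, did not pass. CCND1, cyclin D1, stood at 0.33 with siRNA 6 and -0.11 with siRNA 8, so its arrays lie on opposite sides of 0. Each of its 12 features was higher with siRNA 6 than with siRNA 8, with medians of 0.40 and -0.07. The features share each array, so they do not show that the siRNAs differ. CCND2 stood at 0.12 and 0.04. CCND3 stood at -0.57 and -0.01, and with siRNA 6 its 2 features differed widely, at -1.18 and 0.05.

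Of the mitotic cyclins, 2 of 3 fell, where 28.6% of all genes did. CCNF, cyclin F, the substrate receptor of an SCF ubiquitin ligase, stood at -0.59 with siRNA 6 and -0.96 with siRNA 8 (limma, adjusted p = 0.0153). One of its 2 features was at -0.92 and -1.83, and the other at -0.26 and -0.10. CCNB2, a B-type cyclin of mitosis, stood at -0.73 and -0.50 (adjusted p = 0.0163 in limma). Its decrease came from 1 feature, annotated to an mRNA clone, at -1.39 and -0.94, while the feature of the RefSeq mRNA was at -0.06 on both arrays. With RefSeq mRNA features alone CCNB2 no longer passed (limma, adjusted p = 0.592, where its alternatives ran from 0.0147 to 0.592). CCNB1, the main cyclin of CDK1 in mitosis, stood at 0.02 and 0.18, with a 95% interval of -0.17 to 0.37.

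Cyclins of transcription and their relatives had means from -0.26 to 0.29 on the log2 scale, apart from CCNT2. CCNT2, a cyclin of the elongation kinase CDK9, was the 1 of 8 that passed, where 40.7% of all genes did. It stood at -0.94 and -0.56 (limma, adjusted p = 0.0167), and each of its 3 features was below 0 on both arrays. Its close relative CCNT1 stood at -0.30 and -0.23 and did not pass. The 2 features of CCNT1 lay on opposite sides of 0, at -0.72 and -0.62 for one and 0.12 and 0.17 for the other. CCNH, the cyclin of the CDK-activating kinase CDK7, stood at 0.23 and 0.34 (limma, adjusted p = 0.0738, and 0.0370 with each array centred, where its alternatives ran up to 0.786). CCNC, CCNI, CCNJ, CCNL1 and CCNL2 had means from -0.08 to 0.14.

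CDK6 was the only 1 of 6 cell cycle CDKs that passed, against 40.7% of all genes. CDK6, a partner of the D-type cyclins, stood at 0.51 with siRNA 6 and 0.31 with siRNA 8, or 133% of control (limma, adjusted p = 0.0403). With siRNA 8 its 2 features read 0.61 and 0.02, and with siRNA 6 they read 0.56 and 0.46. CDK4, the other D-type partner, stood at -0.29 and -0.12, with an interval from -0.47 to 0.07. CDK2 stood at 0.03 and -0.12 as a mean over 10 features. CDK7 stood at 0.10 and -0.12. CDK3, a little studied CDK related to CDK2, had the widest gap of these kinases, at -0.33 and -1.10, and did not pass (limma, adjusted p = 0.0657).

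CDK1, the kinase that drives mitosis, was measured closely on both arrays. Its 10 usable features ran from -0.32 to -0.22 with siRNA 6 and from -0.32 to -0.25 with siRNA 8, so all lay below 0. The gene stood at -0.27 and -0.28, or 82.7% of control, and missed the threshold (limma, adjusted p = 0.0736, interval -0.52 to -0.03).

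The CDKs with other roles held some of the lowest ratios. Of these 9 genes 3 were lower (33.3%) and none higher, against 28.6% and 12.1% of all genes. CDK17, a PCTAIRE family kinase, had the lowest mean of the 55 genes, at -2.12 with siRNA 6 and -1.83 with siRNA 8 (25.4% of control; limma, adjusted p = 0.00152), from 1 feature. CDK16, its PCTAIRE relative, stood at -0.23 and -1.11 and did not pass. CDK14, a PFTAIRE kinase that acts with cyclin Y in Wnt signalling, stood at -1.01 and -1.496, or 42.0% of control (limma, adjusted p = 0.00679). One of its features was at -1.58 and -1.35 and the other at -0.44 and -1.64, so both were below 0 on both arrays.

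The Mediator kinases differed in size and in their features. CDK19 stood at -0.97 and -0.78 (limma, adjusted p = 0.00581), but its 2 features, of different accessions, were far apart. The feature of the RefSeq mRNA read -1.88 and -1.53, and that of another cDNA read -0.06 and -0.03. CDK8, its close relative, stood at -0.14 and 0.10 from 1 feature, with a 95% interval of -0.31 to 0.28. CDK5, a kinase best known in neurons, stood at -0.43 and -0.18, CDK10 at -0.43 and -0.25, and CDK13, a kinase of transcription elongation, at -0.05 and -0.21, none past the threshold.

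The CDK inhibitors included the largest increase of the 55 genes. CDKN1C, the p57 inhibitor of the CIP/KIP family, stood at 2.96 with siRNA 6 and 2.79 with siRNA 8, a 7.31-fold increase (log2 2.87 ± 0.121, SD, n = 2; limma, adjusted p = 0.000663). It rested on 1 feature of the RefSeq mRNA, and its second feature, annotated to an expressed sequence tag, was exactly 0 on both arrays. It was the highest of the 55 genes and lay at percentile 97.4 of all genes. CDKN1B, the p27 inhibitor of the same family, stood at 0.43 and 0.55, or 140.5% of control (limma, adjusted p = 0.0204). Of its 11 features, 10 ran from 0.40 to 0.56 with siRNA 6 and from 0.53 to 0.68 with siRNA 8. The other feature was at -0.29 and -0.37, on the far side of 0. CDKN1A, the p21 inhibitor and the third of the family, is not in the list of 60 and moved the other way, at -1.07 and -1.04 (limma, adjusted p = 0.00281), with features from -1.88 to -0.27 with siRNA 6 and from -2.25 to -0.27 with siRNA 8.

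The INK4 inhibitors, which bind CDK4 and CDK6, did not pass where they were measured. CDKN2A, the p16 and ARF gene, stood at -0.14 and -0.20 over 11 features, and CDKN2D, the p19 inhibitor, at -0.33 and -0.05 over 1. CDKN3, a phosphatase that acts on CDKs, stood at 0.00 and 0.24.

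Of the phosphatases and kinases that set the inhibitory phosphorylation of CDKs, 1 of 5 passed, against 40.7% of all genes. CDC25C, a phosphatase that activates CDK1 at mitosis, stood at -0.51 with siRNA 6 and -0.57 with siRNA 8, or 68.7% of control (limma, adjusted p = 0.0142), from 1 feature. CDC25A, which activates CDK2 and CDK1, stood at -0.16 and -0.27, and CDC25B at 0.06 and 0.15. One feature of CDC25A was at -0.39 and -0.54, and its other feature at 0.06 and -0.01. WEE1, the kinase that holds CDK1 inactive, stood at 0.01 and -0.02, with an interval of -0.24 to 0.24. PKMYT1, the other such kinase, stood at -0.07 and -0.10.

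Of the pocket proteins 1 of 3 passed, where 40.7% of all genes did. RBL1, or p107, which binds the repressive E2F factors, stood at -2.07 with siRNA 6 and -1.80 with siRNA 8, or 26.2% of control (limma, adjusted p = 0.00152). It rested on 1 feature, and a second feature, of another transcript accession, was exactly 0 on both arrays. RBL2, or p130, stood at -0.35 and -0.30 and fell just short (limma, adjusted p = 0.0511; 0.0492 and 0.0410 with the arrays scaled or quantile normalized, and up to 0.559 in other alternatives). Its 2 features disagreed, one at -0.76 and -0.82 and the other at 0.07 and 0.21. RB1, the retinoblastoma protein, stood at 0.07 and 0.10 over 11 features. Of these, 10 lay above 0 on both arrays and 1 was at -0.44 and -0.69.

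The E2F and DP factors went both ways, with 2 higher, 1 lower and 7 not past the threshold. Of all genes 12.1% were higher and 28.6% lower. E2F8, an atypical E2F that represses E2F target genes, stood at 1.73 and 1.69, a 3.27-fold increase (limma, adjusted p = 0.00126). E2F7, the other atypical repressor, stood at -0.57 and -0.79, or 62.5% of control (limma, adjusted p = 0.0120). The atypical pair thus lay on opposite sides of 0 on both arrays, each from 1 feature. TFDP2, a DP protein that pairs with E2F factors on DNA, stood at 0.49 and 0.73 (limma, adjusted p = 0.0176). Its feature is annotated to a cDNA clone, and it has no RefSeq mRNA feature with a ratio. TFDP1, the other DP partner, stood at -0.11 and -0.27.

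The classical E2F factors did not pass. E2F1, an activator of S phase genes, stood at -0.33 with siRNA 6 and -0.06 with siRNA 8. Its 10 features ran from -0.40 to -0.23 with siRNA 6 and from -0.09 to -0.03 with siRNA 8, so the features of the 2 arrays do not overlap. E2F2, another activator, stood at -0.18 and -0.44 and E2F3 at 0.10 and 0.16. One feature of E2F2 was at -0.32 and -0.89, and its other feature at -0.04 and 0.00. E2F4, a repressor that binds pocket proteins, stood at -0.25 and -0.23, E2F5 at 0.17 and 0.27 and E2F6 at -0.20 and -0.13.

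Promoters in the reference table from RefSeq (GRCh38.p14) matched 51 of the 60 genes and 12 of the 15 that passed. CCNE2, CDKN1C and E2F8 passed but had no promoter there, so they were not searched. The 250 bases before each transcript start were searched on both strands for an E2F motif (TTTNNCG, in which each N is C or G), and the 3 genes that passed and hold it are shown. RBL1 is a known E2F target, and CDK17 and CDK19 are 2 of the 3 CDKs that fell; both promoters of CDK14, the other, hold no match. Capitals mark the motif. RBL1 (chr20:37095998-37096247) and CDK17 (chr12:96400440-96400689) each have 1 promoter in the table, CDK19 has 3, of which the first is shown (chr6:110815856-110816105), and all 3 genes lie on the minus strand. Of the other CDK19 promoters, the second holds no match and the third holds 1.
RBL1: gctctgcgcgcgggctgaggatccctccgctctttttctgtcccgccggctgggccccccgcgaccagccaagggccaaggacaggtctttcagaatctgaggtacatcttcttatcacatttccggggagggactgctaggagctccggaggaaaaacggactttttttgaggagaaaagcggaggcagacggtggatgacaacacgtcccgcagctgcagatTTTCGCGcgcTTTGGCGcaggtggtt
CDK17: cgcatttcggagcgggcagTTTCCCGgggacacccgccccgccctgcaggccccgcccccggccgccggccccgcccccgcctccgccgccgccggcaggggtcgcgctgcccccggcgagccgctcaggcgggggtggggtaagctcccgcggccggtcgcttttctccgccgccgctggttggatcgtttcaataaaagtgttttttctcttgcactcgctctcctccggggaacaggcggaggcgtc
CDK19: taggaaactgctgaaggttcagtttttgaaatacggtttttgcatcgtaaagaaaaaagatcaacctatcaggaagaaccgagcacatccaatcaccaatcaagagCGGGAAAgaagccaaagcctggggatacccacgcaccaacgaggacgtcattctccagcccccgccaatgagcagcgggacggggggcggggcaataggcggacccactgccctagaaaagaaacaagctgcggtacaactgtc

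The RBL1 promoter holds 2 matches close to its start, at 26 to 20 and at 16 to 10 bases before it. The match of CDK17 lies 231 to 225 bases before the start, and that of CDK19, read on the opposite strand, 144 to 138 bases. The E2F motif was found in 8.86% of all genes with a promoter, in 29.4% of the listed regulators with one (15 of 51) and in 3 of the 12 that passed. The motif is thus carried by many regulators whose ratios did not pass. A CDX2 motif (TTTATNN, in which the first N is T or G and the second A or G) was found in 14.1% of all genes and in 4 of 51 listed regulators, CDK17 being the 1 of them that passed. The CHR motif TTTGAA of cell cycle genes was found in 5 of the 12 that passed, against 17.6% of the listed regulators and 16.1% of all genes. CCAAT was found in 8 of the 12, against 52.9% and 37.0%. A gene counted when any of its promoters matched, and the genes that passed had 21 promoters. Counted by promoter, CHR was found in 6 of these 21, against 13.3% of all 35116 promoters. The E2F motif was found in 4 of the 21, against 7.33%, and CCAAT in 9, against 32.0%. Of the 78 promoters of listed regulators, 14.1% held CHR, 20.5% the E2F motif and 41.0% CCAAT. For the E2F motif and CCAAT, the promoters of genes that passed (19.0% and 42.9%) were thus close to those of the whole list. Motifs were counted separately, and letters may be shared, as by the CDX2 motif and the reverse of CCAAT.

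The regulators rested on different numbers of features. Of the 26 with 1 feature 8 passed, of the 20 with 2 to 4 features 6 passed, and of the 9 with 10 or more features 1 passed. The shares of all genes that passed were 41.4% with 1 feature, 39.8% with 2 to 9 and 34.3% with 10 or more. Among the regulators, changes of 2-fold or more in the mean were seen in 5 of the 26, 1 of the 20 and 0 of the 9. Over all genes such changes made up 22% of those with 1 feature, 11% of those with 2 to 9 and 13.4% of those with 10 or more. The part of feature number in the ratios was not tested.

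For the 9 genes with 10 or more features, the spread over features differed from gene to gene. The SD over all features was smallest for CDK1 with siRNA 6 (0.0297) and for E2F1 with siRNA 8 (0.0215), and largest for CDK9 on both arrays (0.573 and 0.588). It was 0.244 and 0.307 for CDKN1B, 0.213 and 0.148 for CCND1 and 0.171 and 0.264 for RB1. In each of the 9 genes 10 features lay within 0.25 of the gene's median on both arrays, a limit chosen after the values were seen. The SD over features shows the spread of features on 1 array and not that between cultures. In CDK9, CDKN1B and RB1, 1 feature each lay below the rest on both arrays. Differences between probes and error of spots were not told apart. CDK9, the elongation kinase, stood at -0.37 and -0.25 over 12 features, but 10 of these averaged -0.19 and -0.01, and the others were at -2.18 and -1.85 and at -0.30 and -1.07. For CDKN1B the 10 features averaged 0.51 and 0.64, or 148.7% of control, and for RB1 0.12 and 0.17. CCND1 had 2 features outside the limit, at -0.29 and -0.40 and at 0.18 and -0.40, and its mean over both arrays was 0.17 without them and 0.11 with them. CDKN2A had 1 outside it, at 0.10 and -0.12.

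**Figure D3:**
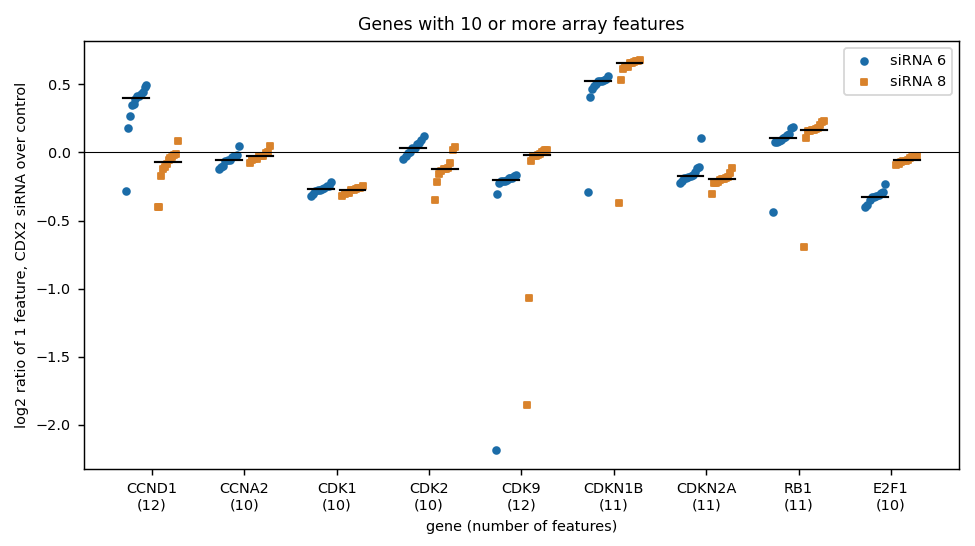
Log2 ratio of each feature (vertical axis) for the 9 regulators with 10 or more features, with circles for siRNA 6, squares for siRNA 8 and black bars for the median over features. The median of CDKN1B lies above 0 and that of CDK1 below 0 on both arrays, and 2 features of CDK9, 2 of CCND1 and 1 each of CDKN1B, RB1 and CDKN2A lie apart from the rest.

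Where a gene had 2 to 4 features they often differed. In 7 of 20 such regulators (35%) the features were more than 0.5 apart (log2, mean of both arrays), with a median gap of 0.376. Among all genes with 2 to 9 features these values were 49.4% and 0.483. The gap runs from the lowest to the highest feature and can widen with their number, so the 2 sets are not like for like. Among the 6 of these 20 regulators that passed, the gap was over 0.5 in CCNB2 (1.10), CCNF (1.196) and CDK19 (1.66). It was within 0.5 in CCNT2, CDK14 and CDK6. Which feature follows the main transcript of a gene was not tested.

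**Figure D4:**
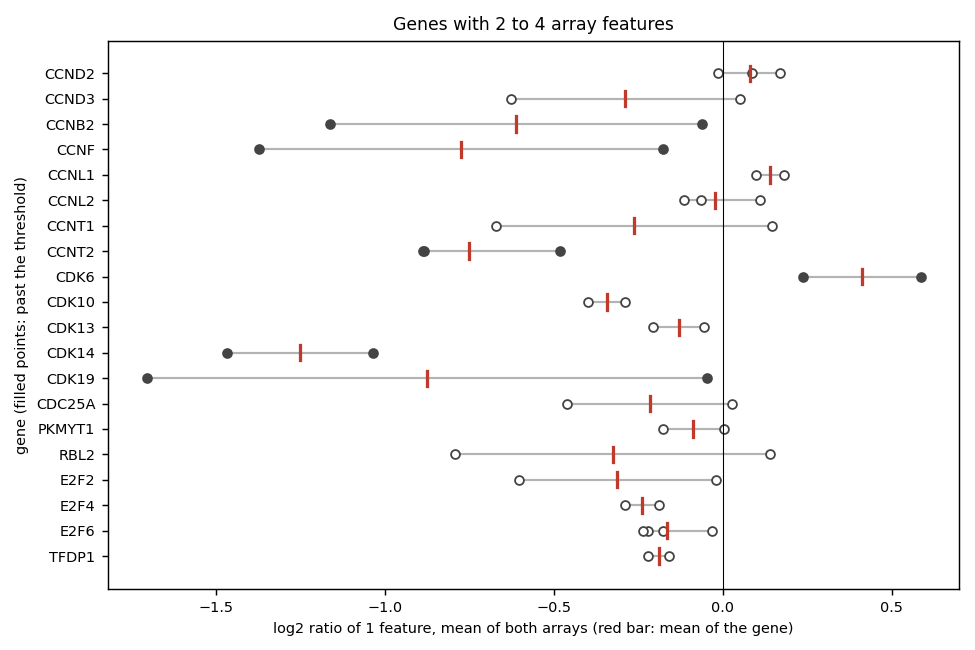
Log2 ratio of each feature, as the mean of both arrays (horizontal axis), for the 20 regulators with 2 to 4 features (rows), with a red bar at the gene's mean and filled points for genes past the threshold. CDK19, CCNF and CCNB2 each join 1 feature far below 0 to 1 feature near 0, and the features of CDK14 and CCNT2 all lie below -0.4.

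Other genes of the pathway were taken from 5 lists, chosen with earlier results of these data known. Of 8 MuvB, MYB and FOXM1 genes, which work with the pocket proteins, 1 rose and 2 fell, with a median of -0.21. LIN54, the DNA-binding subunit of MuvB, stood at -1.63 and -1.10, and RBBP4, a histone-binding subunit, at -0.89 and -0.75. The 4 features of RBBP4 differed, with 2 at -1.17 and -1.199 and at -1.94 and -1.62, and the others at -0.21 and 0.07 and at -0.23 and -0.24. MYBL1 stood at 0.44 and 0.78, but 1 of its 4 features, at 4.68 and 4.79, outweighed 3 features below 0, and its median over features was -0.51.

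Genes of the ubiquitin ligases that degrade cyclins and CDK inhibitors fell in 5 of 25 cases, and none rose, with a median of -0.09. FBXW11 and BTRC, the substrate receptors that recognise WEE1 and CDC25A, stood at -1.16 and -1.04 and at -0.76 and -0.79. In each, 1 feature was lower than -1.4 on both arrays and the other within 0.14 of 0. CDC23, an APC/C subunit, stood at -0.86 and -1.08, and did not pass with RefSeq mRNA features alone (limma, adjusted p = 0.182, where its alternatives ran from 0.00454 to 0.182). Other cyclins, CDKs and CDK partners passed in 15 of 29 cases, 2 higher and 13 lower, with a median of -0.26. CCNYL1, a cyclin Y relative, stood at -1.62 and -1.73, CDK5R2, an activator of CDK5, at -1.82 and -1.53, and MED12, which activates the Mediator kinases, at -1.44 and -1.38.

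E2F target genes of S phase had 9 of 29 lower and none higher, with a median of -0.23. GINS1, of the replicative helicase, stood at -0.68 and -0.72 and TK1, thymidine kinase, at -0.45 and -0.68. DTL, a substrate receptor for CDT1, stood at -0.61 and -0.70 over 10 features, each below -0.5 on both arrays. Of 20 G2/M genes and proliferation markers 2 fell and none rose, with a median of -0.15. NDC80, a kinetochore protein, stood at -0.64 and -0.81, with 1 feature at -1.01 and -1.33 and the other at -0.26 and -0.28. PLK1, a mitotic kinase, stood at -0.38 and -0.30 and did not pass with each array centred (limma, adjusted p = 0.111, where its alternatives ran from 0.0399 to 0.485). Beside the 40.7% of all genes that passed, the 5 lists had 37.5%, 20%, 51.7%, 31.0% and 10.0% in the order given. By direction, 25%, 20%, 44.8%, 31% and 10% were lower, against 28.6% of all genes. Higher were 12.5%, 0%, 6.9%, 0% and 0%, against 12.1%. These differences were not tested.

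**Figure D5:**
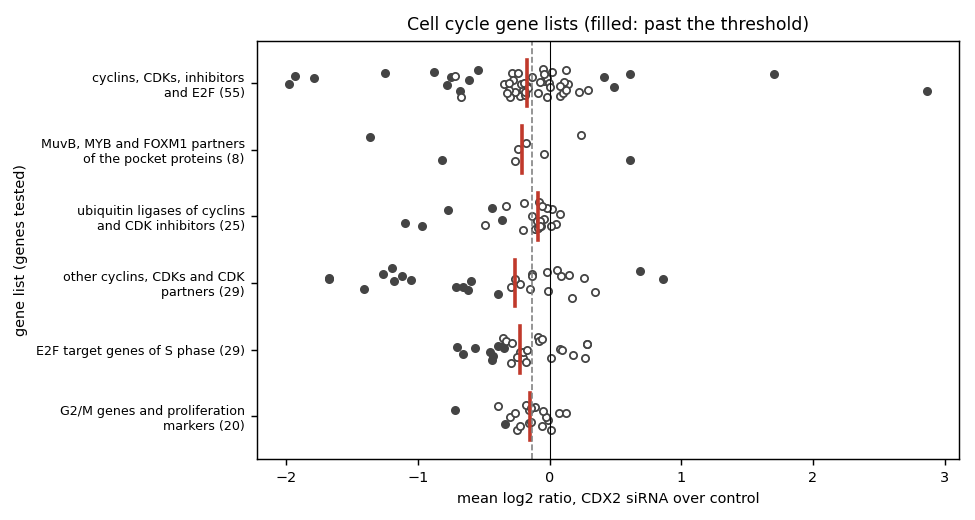
Mean log2 ratio of CDX2 siRNA over control (horizontal axis) for each gene of the 55 regulators and of 5 further lists (rows, genes tested in brackets), with filled points past a limma adjusted p of 0.05, red bars for list medians and a dashed line for the median of all genes. List medians lie between -0.26 and -0.09, around the -0.13 of all genes.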

How the data were processed

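The authors deposited 1 value for each of 45015 features and 2 arrays, read here as the log10 ratio of Cy5 over Cy3, the output of Agilent Feature Extraction (version 9.5.3, per the submitters' processing notes). No source used here writes out the base, so folds and percentages depend on it, and background and dye correction are not given in the sources used here. Ratios were converted to log2. Features were named by the platform annotation, and features with 1 gene and a ratio other than 0 on both arrays were averaged per gene. All 175 features of the 58 genes on the array matched a RefSeq gene, and 0 symbols changed.

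All 12842 genes were fitted in R 4.3.3 by limma 3.58.1, with an intercept and eBayes (residual degrees of freedom 1, prior degrees of freedom 2.87), and adjusted by Benjamini-Hochberg. The code of the fit was run on simulated data with known changes, where it recovered most of the largest and few of the smallest. Far fewer genes were changed there than passed here, so that recovery does not carry over to these data. A gene that did not pass is not shown to be unchanged. Intervals are limma's 95% moderated intervals. Nothing in the labels says the cultures were prepared independently. Genes named are those on the list, up to 3 per further list by the smaller absolute ratio of both arrays, CDKN1A and CDX2. Genes and lists were chosen with earlier results of these data known. Motifs and plots used Python 3.11.15, pandas 2.3.3, NumPy 2.4.6 and matplotlib 3.10.9. No p adjusted over a list was computed.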

Additional observations from a re-analysis of the deposited data

How the results depend on the processing

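Of the 15 regulators that passed, all 15 passed with each array centred, with scaled or quantile normalized arrays, with limma's robust prior, with the median over features and with accessions averaged first. RefSeq mRNA features alone lost CCNB2 and, for lack of a value, TFDP2. A test against a fold of 1.2 (limma treat) kept 10, 2 higher and 8 lower, and lost CCNB2, CDK6, CDKN1B, CDC25C and TFDP2. Of all 12842 genes that test passed 1064 higher and 2500 lower. With exact zeros kept, limma called 0 of 18334 genes (0 higher, 0 lower; 5218 at an unadjusted p under 0.05) and 0 of the 58 regulators, and CDX2 kept -1.42 with a limma adjusted p of 0.0676 (as low as 0.00144 in other alternatives). That setting adds genes with no spread to the variance prior. Zeros as values also brought CDKN1C to 1.44 and RBL1 to -0.97. On 1 array alone, 10 to 12 of the 55 genes were at least 1.5-fold from control. The share of all genes on 1 array was not computed, so these counts have no background beside them.

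With each array centred, 9 regulators near 0 changed sign, none past the threshold: CCNA2 (0.0693), CCNC (0.0595), CCNL2 (0.0862), CCNI (0.0344), CDK2 (0.0640), CDK7 (0.102), CDK8 (0.0930), WEE1 (0.109) and PKMYT1 (0.0224). With the median over features CCNL2 (0.0283) and MYBL1 (-0.51) changed sign. Keeping only features near the median, chosen after seeing the data, moved CDK9 to -0.10, CDKN1B to 0.57 and RB1 to 0.15. Each ratio sets knockdown against control RNA on the same array, so the fit of ratios against 0 already pairs them. No further pairing was possible because no 2 groups share a number. Without intensities, the signal over background that limits each ratio is unknown.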
